A study of Homo sapiens with 9 samples.

Results

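MOLM13 cells exposed for 72 h to 1 µM iberdomide (CC-220) were compared with MOLM13 cells kept for 72 h in the solvent DMSO, with 3 libraries in each group. MOLM13 is an established human acute myeloid leukaemia line, so that the comparison concerns 1 line, and the labels name no other agent and no engineered allele in either group. The genes described are the rows of the authors' deposited table of this comparison that name a gene and hold an adjusted p-value, 19497 of 59699 rows. They exclude 44 second copies listed for chromosome Y and 92 rows that name no gene. The remaining 3 of 9 libraries received 50 nM mezigdomide (CC-92480) for 72 h, and their values stand beside those of iberdomide where they bear on a result. The table holds 1 mean, 1 fold change and 1 error per gene, so no value of a single library can be shown. Whether libraries of 1 group stem from different cultures is not stated in the labels, so the p-values measure the spread between libraries, which may be technical. The authors' fit may hold all 9 libraries, those with mezigdomide included, which would then share 1 estimate of that spread.

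Iberdomide and mezigdomide bind cereblon, the substrate receptor of the CRL4 ubiquitin ligase. With the drug bound, cereblon takes up zinc finger transcription factors such as Ikaros (IKZF1) and Aiolos (IKZF3), which are then ubiquitinated and degraded by the proteasome. Ikaros represses and activates genes in blood progenitors and is needed for lymphoid development. A loss of the protein need not appear in the transcript of the same gene, and RNA levels say nothing of protein levels.

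In the cells labelled as acute myeloid leukaemia, all 9 myeloid markers that were looked up, among them CD33, SPI1, MPO and LYZ, had mean normalised counts of 1644 to 23353. Of the 4 markers each of T cells, B cells, erythroid cells, platelets and fibroblasts, 16 of 20 had means under 10, as had 2 of 4 epithelial markers. The exceptions included COL1A1, a fibrillar collagen chain, with a mean of 101. Estimated library depths lay between 20900000 and 25300000 counted reads. At means of 1000 normalised counts or more the median standard error of the log2 fold change was 0.0907, and a fold of about 1.19 sufficed for a call. For genes under a mean of 100 it was 0.215, and about 1.5-fold was needed. Both folds are on the scale of the deposited fold changes, which are shrunk towards 0 for low genes.

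Iberdomide changed many genes by small amounts and few by large ones. At an adjusted p under 0.05 in the authors' deposited table (DESeq2 Wald test, Benjamini-Hochberg adjustment), 2743 of 19497 genes (14.1%) were called. Of all genes tested, 1424 were higher (7.3%) and 1319 lower (6.77%). The median log2 fold change was 0.55 among the higher genes, -0.50 among the lower ones and -0.01 over all genes. A change of at least 2-fold was reached by 453 genes (2.32%), of which 289 were higher and 164 lower. At 4-fold the split was more uneven, with 67 higher and 13 lower. Changes under 1.5-fold accounted for 764 of the higher and 768 of the lower calls. No gene went from an estimated level under 10 normalised counts in DMSO to at least 100 under iberdomide, or the reverse. These levels were estimated from the mean over all 9 libraries and both fold changes, and they carry no error of their own. The deposited fold changes of low genes are shrunk towards 0, which draws the estimated levels of the groups together. The absence of such genes therefore does not show that none switched on or off.

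**Figure D1:**
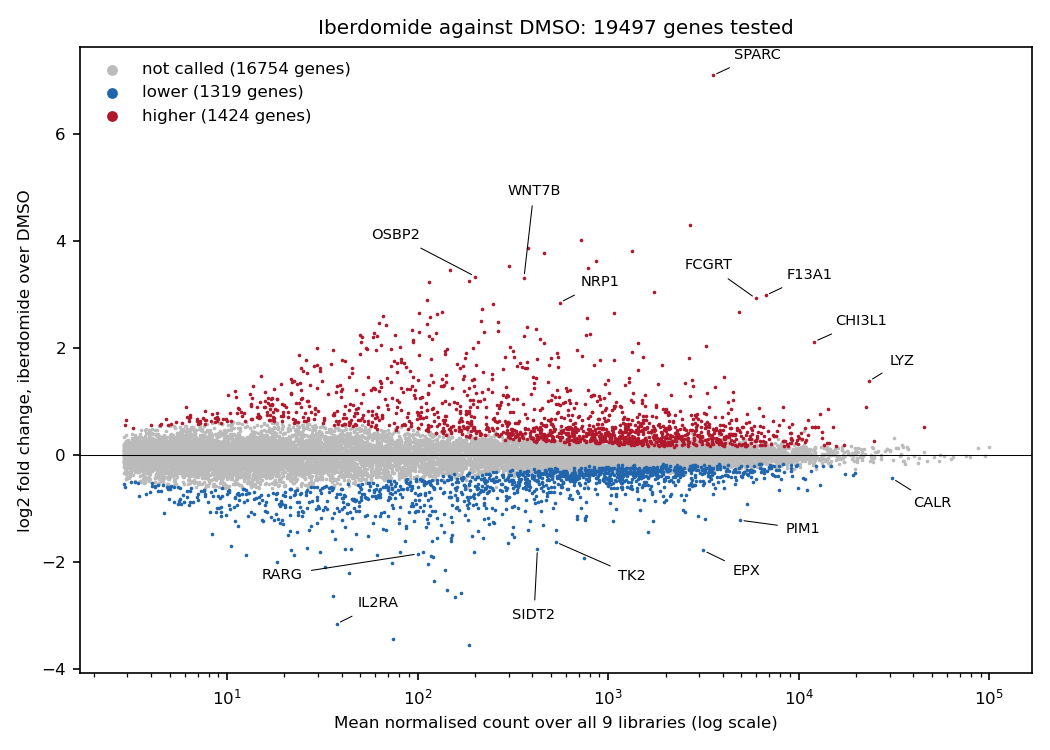
Log2 fold change of iberdomide over DMSO (vertical axis) against the mean normalised count over all 9 libraries (horizontal axis, log scale), 1 point per gene tested. Red points are the 1424 genes called higher, blue points the 1319 called lower and grey points the rest, and the largest changes are mostly rises.

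At means of 100 normalised counts or more, the strongest rises included genes of membrane, lipid-binding and secreted proteins. Left out of this ranking were genes described earlier from these data. OSBP2, an oxysterol-binding protein, rose by 3.34 on the log2 scale (SE 0.168, adjusted p 7.61e-85) by the authors' deposited table, from an estimated 27.8 to 282 normalised counts. WNT7B, a secreted Wnt ligand, rose by 3.32 (SE 0.136, adjusted p 2.75e-128) by the authors' deposited table, from an estimated 47.0 to 468. The same table gave 3.26 for CD209, the lectin DC-SIGN of dendritic cells and macrophages, and 3.24 for TREML1, a TREM-family receptor of platelets. FCGRT, the neonatal Fc receptor that recycles IgG and albumin, rose by 2.93 (SE 0.0890) in the authors' deposited table, from an estimated 1064 to 8128. F13A1, the coagulation factor XIII subunit that macrophages also make, rose by 2.99 in the authors' deposited table, from an estimated 1030 to 8172. NRP1, a co-receptor for semaphorins and VEGF, rose by 2.85, and the serpin SERPINB10 by 3.04, in the authors' deposited table. The others chosen by the same rule were RAI14 (estimated at 18.4 and 138 normalised counts), DZIP1L (2.83), the potassium channel KCNQ3 (2.73) and the secreted glycoprotein LGALS3BP (2.68), all in the authors' deposited table.

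Genes described earlier from these data were left out here, among them IGLL1 (-3.55) and IL2RG (-2.04), which fell farther in the authors' deposited table. Of the rest, the strongest falls in the same range of means included 3 transcription factors. RARG, the gamma receptor of retinoic acid, had a log2 fold change of -1.84 (SE 0.182, adjusted p 3.84e-22) by the authors' deposited table, from an estimated 186 to 51.7 normalised counts. CEBPE, a factor of late granulocyte differentiation, stood at -1.81 (SE 0.155), and SPIB, an Ets factor of B cells and plasmacytoid dendritic cells, at -1.54 in the authors' deposited table. The kinase PKDCC was at -1.81, the lysosomal nucleic acid transporter SIDT2 at -1.74, PRR5L at -1.64 and mitochondrial thymidine kinase TK2 at -1.62 in the authors' deposited table. Secreted and signalling genes in this set were the peptide hormone ADM2 (-1.61), the cytokine OSM (-1.59), DACT3 (-1.55) and the Notch ligand DLL1 (-1.54), from the authors' deposited table. The same rule chose EPX, eosinophil peroxidase, whose values stand with the eosinophil genes.

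The calls that moved most reads were partly others. LYZ, lysozyme, rose by 1.39 (SE 0.0783) in the authors' deposited table, from an estimated 10845 to 28324 normalised counts. CHI3L1, a secreted chitinase-like protein, rose by 2.12 from an estimated 3507 to 15260, and GRN, progranulin, by 0.87 from 8997 to 16489, by the authors' deposited table. IKZF1, the gene of Ikaros itself, rose by 0.76 (SE 0.105, adjusted p 1.62e-11) by the authors' deposited table, from an estimated 8285 to 14079. VAT1L rose by 2.67, TSPOAP1 by 0.91, CITED2, a transcriptional co-regulator, by 0.53, and the actin crosslinker FLNA by 0.52 (adjusted p 0.00655) by the authors' deposited table. On the losing side stood JUND, an AP-1 subunit, at -0.62, the precursor-like protein APLP2 at -0.34, MLC1 at -0.66, and the sterol genes INSIG1 and FDFT1 at -0.56 and -0.35 in the authors' deposited table. The remaining members of that set, CALR, XBP1, HSPA5, PIM1 and EPX, belong to groups described further on. Reads are not scaled to gene length, so this order is one of read numbers and not of transcript numbers. IKZF3 was at the edge of detection, with a mean of 3.61 and a log2 fold change of 0.11 (adjusted p 0.845) by the authors' deposited table. CRBN, which encodes cereblon, stood at 0.03 (adjusted p 0.900) there.

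Across 35 gene lists and 24 families defined by symbol, the members' calls are read against 7.3% higher and 6.77% lower over all genes. Called shares were large on both sides in several receptor groups and near 0 in the ribosome, proteasome and respiratory chain. The lists share some members, and members with high means are called more readily than average genes, so the counts are descriptions.

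**Figure D2:**
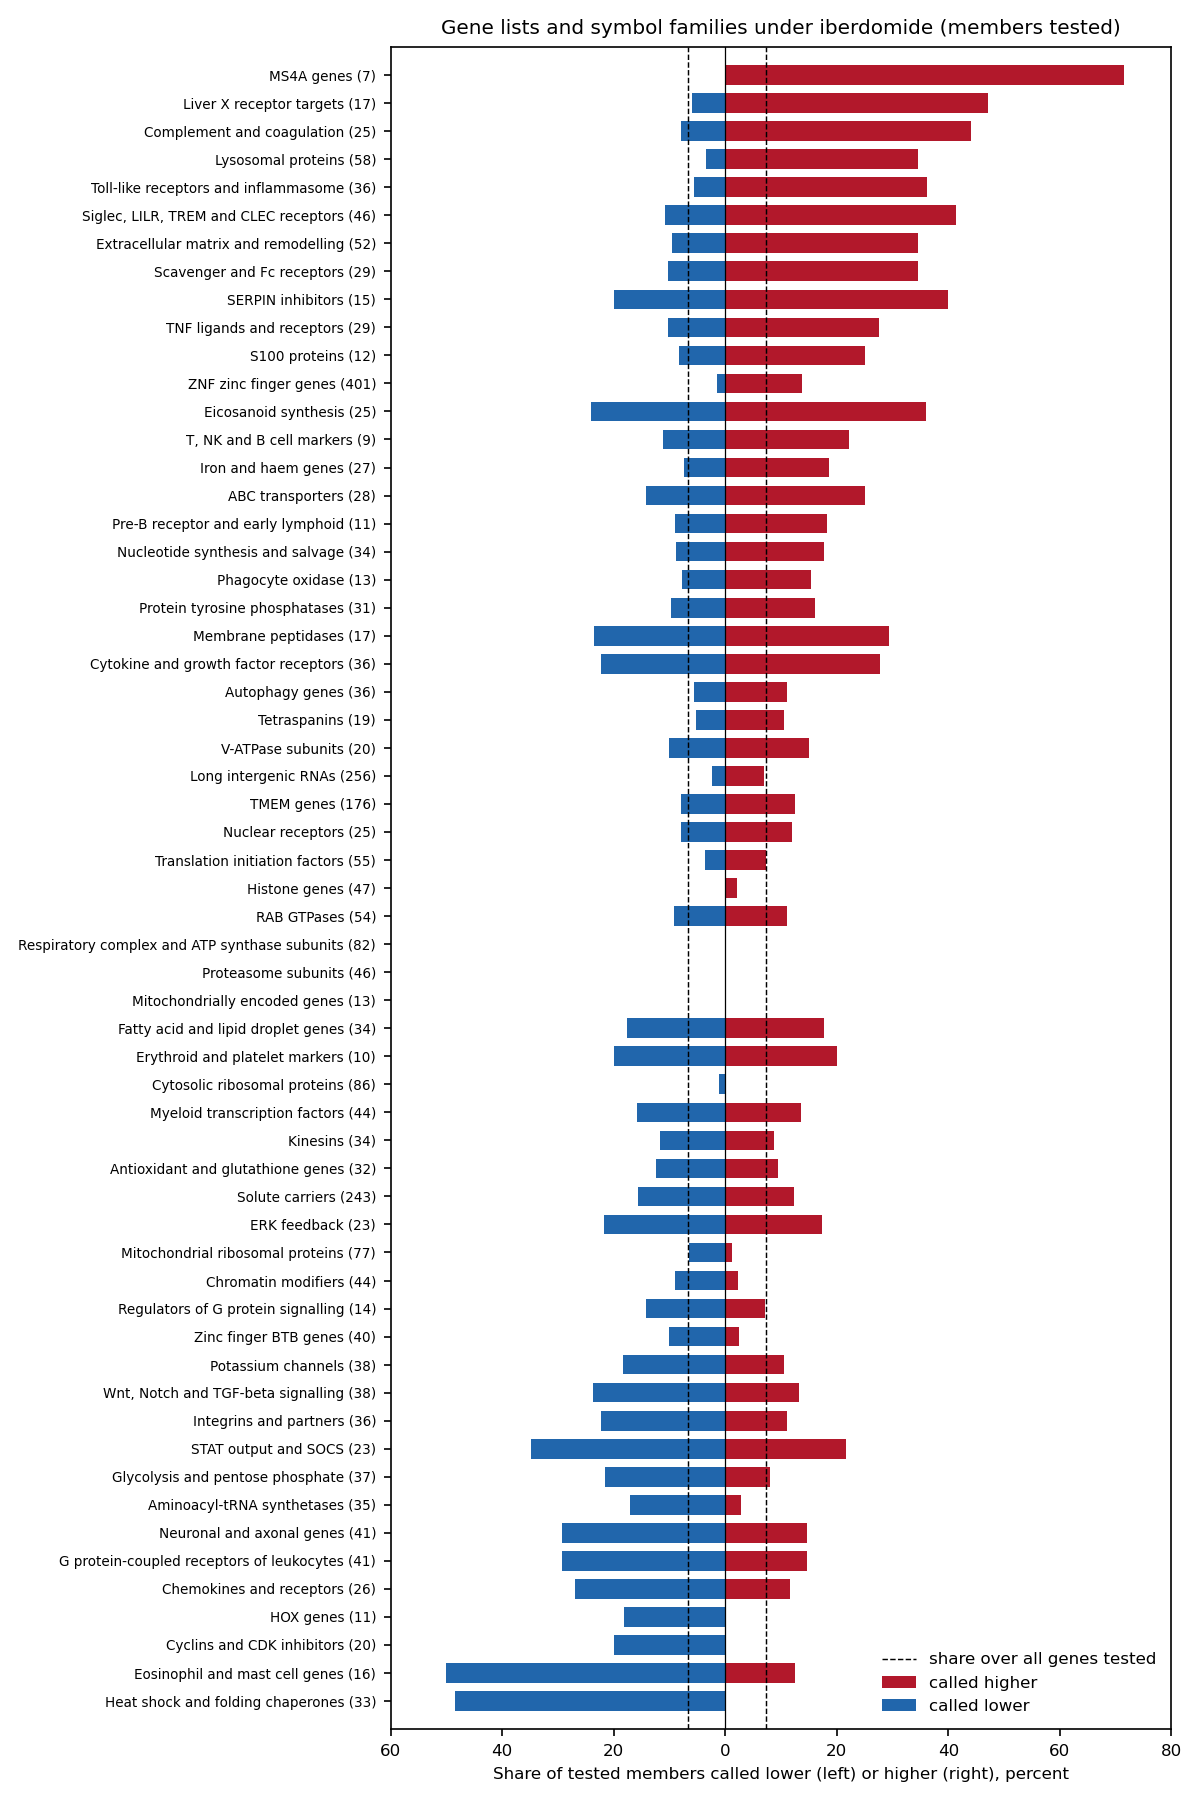
Share of tested members called higher (red, to the right) and lower (blue, to the left) in percent for 35 gene lists and 24 symbol families, with the number tested in brackets; dashed lines mark the 7.3% and 6.77% over all genes. MS4A genes (5 of 7 higher) stand at the top and chaperones (16 of 33 lower, 0 higher) at the bottom.

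Of 17 tested liver X receptor targets 8 rose under iberdomide, and 3 of them moved the other way or far less under mezigdomide. Liver X receptors (NR1H3 and NR1H2) are oxysterol-activated nuclear receptors that pair with RXR and switch on cholesterol export and fatty acid synthesis. Of 21 listed target genes 17 were tested, of which 8 were higher and 1 lower, with a median of 0.17. ABCA1, the membrane pump that loads cholesterol on apolipoprotein A-I, rose by 3.50 (SE 0.179, adjusted p 2.33e-82) by the authors' deposited table, from an estimated 167 to 1894 normalised counts. The receptor gene NR1H3 rose by 2.02 (SE 0.135) from an estimated 103 to 419, and its partner RXRA by 0.60 (SE 0.0738), in the authors' deposited table. PLTP, the phospholipid transfer protein of plasma, rose by 1.81, APOE, the apolipoprotein of macrophages and liver, by 1.25, and SMPDL3A, a phosphodiesterase, by 0.86 in the authors' deposited table. SREBF1, the driver of fatty acid synthesis, rose by 0.56 (SE 0.0583) from an estimated 7339 to 10809 in the authors' deposited table. MYLIP, the ubiquitin ligase that degrades the LDL receptor, rose by 0.36 and APOC1 by 0.52 in the authors' deposited table. MLXIPL, the carbohydrate response factor, stood at -0.67 in that table. The highly expressed lipogenic enzymes FASN and SCD stood at 0.06 (adjusted p 0.884) and 0.14 (adjusted p 0.436) by the authors' deposited table, neither past the threshold.

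The ABCA1 window is shown because this gene differed most between the drugs on the log2 scale among those that moved farther under iberdomide. It is the RefSeq promoter of ABCA1 on build GRCh38.p14, chr9:104928106-104928405, minus strand, 250 bases before to 50 after the start. Capitals mark a match, on the opposite strand, to AGGTNANNNNNGGTCA, a loose form of the direct repeat bound by liver X receptors.
ABCA1: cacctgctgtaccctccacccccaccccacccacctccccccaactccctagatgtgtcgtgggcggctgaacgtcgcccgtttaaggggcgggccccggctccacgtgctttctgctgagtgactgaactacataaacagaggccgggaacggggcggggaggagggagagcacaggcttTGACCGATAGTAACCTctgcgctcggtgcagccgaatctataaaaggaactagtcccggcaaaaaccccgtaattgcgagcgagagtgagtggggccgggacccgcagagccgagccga
The match spans bases -69 to -54 from the start. The letters, searched on both strands, occurred in 33 of 35093 RefSeq windows (0.0940%) and in 9 of 11183 tested genes with a window (0.0805%). They occurred in 1 of 14 listed target genes with a window, ABCA1 itself. The pattern was added after values were seen and leaves letters open also within the repeats. Its match in ABCA1 and its rarity are therefore no test. The match describes letters only, and nothing was measured on the binding of a factor there.

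Under mezigdomide the same genes stood as follows in the authors' deposited table of that drug. ABCA1 was at 0.80, with an estimated level of 290 normalised counts against 1894 under iberdomide. SREBF1 was at -0.44 and MYLIP at -0.34, both called lower, while NR1H3 (1.92), PLTP (1.66) and SMPDL3A (0.82) stood near their iberdomide values. The mezigdomide minus iberdomide difference was -2.71 for ABCA1 (SE 0.255, adjusted p 2.77e-22), -0.9995 for SREBF1 (SE 0.0827, adjusted p 2.71e-29) and -0.70 for MYLIP (SE 0.111, adjusted p 1.59e-06) by a two-sided normal test across all genes. For NR1H3 the difference was -0.10 (95% interval -0.47 to 0.28) and for PLTP -0.15 (-0.42 to 0.12). Over all genes 21 of 19497 differed between the drugs (0.108%) with the errors taken as independent. With an error correlation of 0.5, since both comparisons use the same DMSO libraries, 118 differed, of which 17 lay farther from DMSO under iberdomide. In 4 of the 21 a gene called under iberdomide lay farther from DMSO there than under mezigdomide. The 3 target genes ABCA1, SREBF1 and MYLIP were among these. In the other 17 the mezigdomide value was the more distant one. EPX, CD36, IL7R and VSIG4 were among them. The doses differed (1 µM and 50 nM), so drug and dose cannot be told apart.

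**Figure D3:**
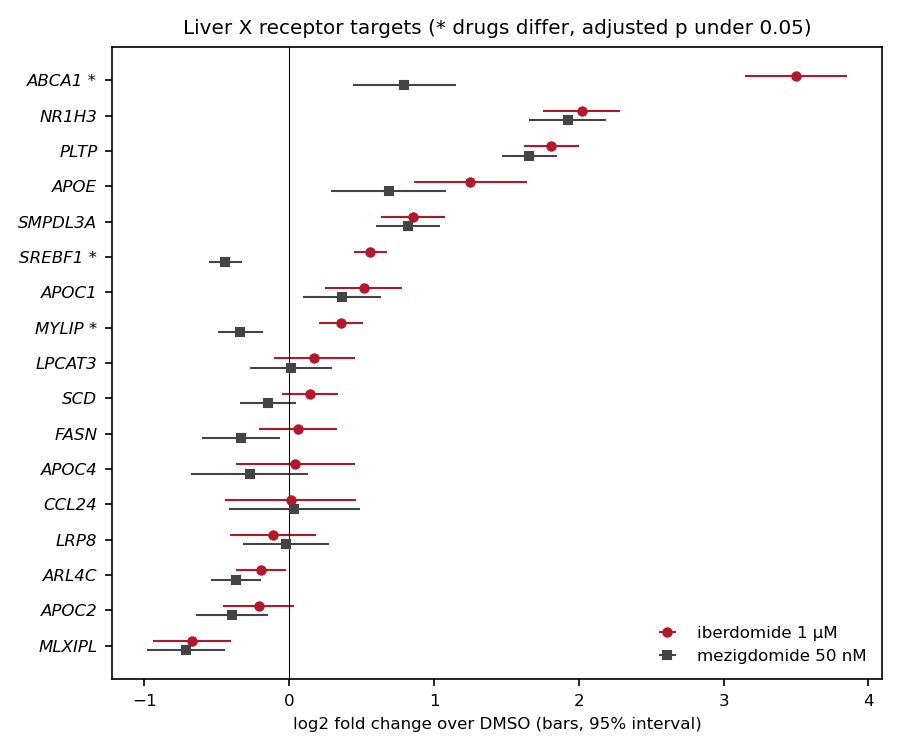
Log2 fold change over DMSO for the 17 tested liver X receptor targets under 1 µM iberdomide (red circles) and 50 nM mezigdomide (dark squares), with 95% intervals; an asterisk marks genes whose difference between drugs had an adjusted p under 0.05. ABCA1, SREBF1 and MYLIP are set apart, while NR1H3, PLTP and SMPDL3A nearly coincide.

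The IL-2 receptor chains IL2RA, IL2RB and IL2RG fell, while IL7R and some receptors for myeloid growth factors rose. Of 36 tested cytokine and growth factor receptors (43 listed), 10 were higher and 8 lower, with a median of 0.04. Of the 8, 3 have a mean of at least 50, namely IL2RG, IL15RA and the erythropoietin receptor EPOR (-0.38 in the authors' deposited table). IL2RA, the alpha chain that gives the IL-2 receptor its high affinity, had a log2 fold change of -3.15 (SE 0.230, adjusted p 1.82e-40) by the authors' deposited table, from an estimated 92.6 to 10.4 normalised counts. The gene lies at chr10:6010689-6062370 (GENCODE 29, GRCh38). IL2RB, the chain shared with IL-15, was at -1.15 and IL2RG, the common gamma chain, at -2.04 in the authors' deposited table, although 50.8% of the exon bases of IL2RG are shared with another gene on the same strand. IL7R, the interleukin-7 receptor that pairs with the common gamma chain, rose by 2.10 in the authors' deposited table, from an estimated 358 to 1534 normalised counts. IL15RA stood at -0.67 and JAK3, the kinase bound to the common gamma chain, at -0.73 (adjusted p 0.0152) by the authors' deposited table. IL5RA, the eosinophil IL-5 receptor, was at -0.97, from an estimated 14.03 to 7.18, in the authors' deposited table. The levels of IL2RA, IL2RB, JAK3 and IL5RA are low in both groups, and log2 fold changes of low genes are shrunk towards 0.

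CSF1R, the receptor of macrophage colony-stimulating factor, rose by 1.34 (SE 0.138) from an estimated 1179 to 2990 normalised counts in the authors' deposited table. IL6ST, the gp130 chain shared by IL-6 family receptors, rose by 1.09, IL13RA1 by 1.03 and AXL, a receptor kinase for apoptotic cell ligands, by 0.97 in the authors' deposited table. CSF3R, the granulocyte colony-stimulating factor receptor, rose by 0.42, IL10RA by 0.39 and IL6R by 0.37 in the authors' deposited table. FLT3, the growth factor receptor kinase of early progenitors, did not pass, at -0.03 (SE 0.0719, adjusted p 0.894) by the authors' deposited table with an estimated 11639 normalised counts in DMSO.

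Among genes of JAK and STAT signalling, members were called in both directions. JAK kinases bound to cytokine receptors phosphorylate STAT proteins, whose targets include the PIM kinases and the SOCS inhibitors. Of 23 tested members of the STAT and SOCS list, 5 were higher and 8 lower, with a median of 0.03. With Benjamini-Yekutieli adjustment 1 was higher and 6 lower. SOCS3, JAK2, STAT3, LIF and SOCS2, given below, were then no longer called. PIM1, a survival kinase, stood at -1.21 (SE 0.111, adjusted p 1.11e-25) by the authors' deposited table, from an estimated 7806 to 3366 normalised counts. SOCS1 was at -1.04, PIM2 at -0.43, CISH at -0.33, STAT5A at -0.34 and SOCS2 at -0.20 in the authors' deposited table. SOCS3 rose by 0.59 (adjusted p 0.00721), JAK2 by 0.43, STAT3 by 0.20 and the cytokine LIF by 0.72 in the authors' deposited table. LIF had a low mean of 8.89 normalised counts. In the ERK feedback list of 23 tested genes, 4 were higher and 5 lower, with a median of -0.07. DUSP6, an ERK phosphatase, was 1 of the 4 higher genes, at 0.88 in the authors' deposited table. PHLDA1 (-1.18), DUSP8 (-1.06, from a low level), IER3 (-0.69), ETV5 (-0.54) and ETV4 (-0.39) were lower there.

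**Figure D4:**
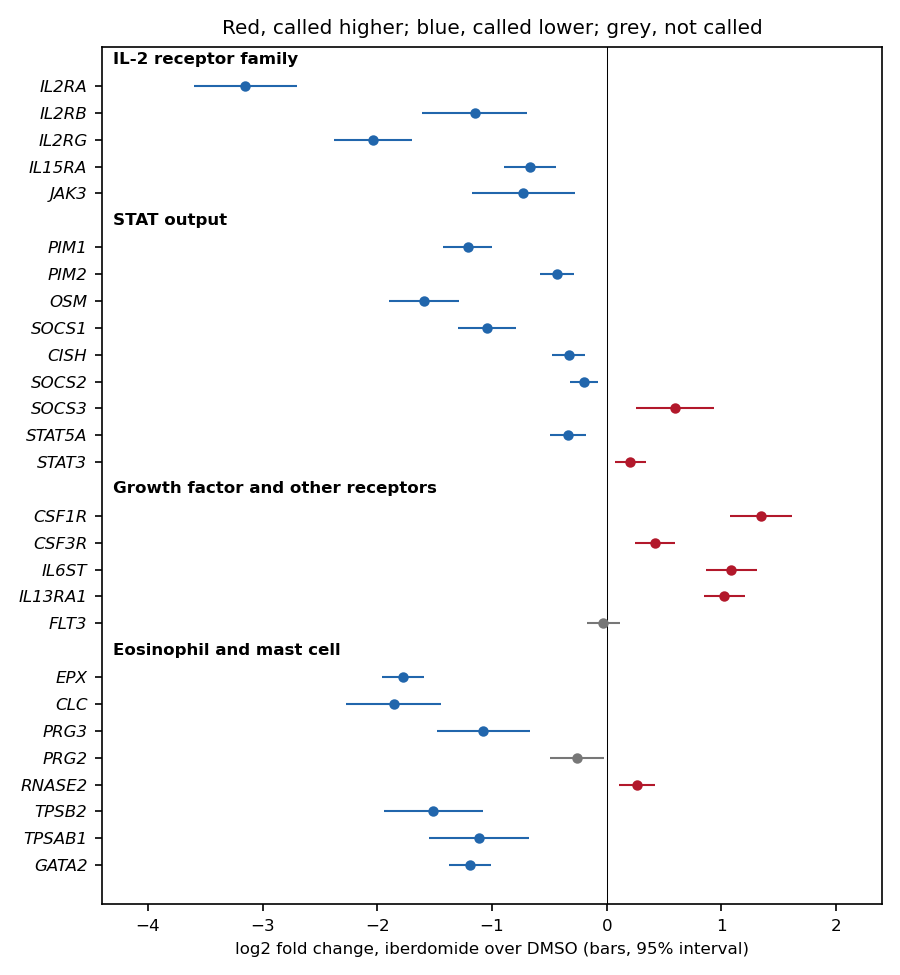
Log2 fold change of iberdomide over DMSO with 95% intervals for genes of the IL-2 receptor family, STAT output, other receptors, and eosinophils and mast cells; red was called higher, blue lower, grey not called. The IL-2 receptor chains and EPX lie far to the left, from IL2RA at -3.15, and CSF1R, IL6ST and IL13RA1 lie above 1.

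Among genes of eosinophils and mast cells more members were lower than higher. Eosinophils carry peroxidase and major basic protein in their granules and also make Charcot-Leyden crystal protein, and mast cells carry tryptases and histamine. Of 16 tested members of the list (22 listed), 2 were higher and 8 lower, with a median of -0.66. With a mean of at least 50 required, 1 was higher and 4 were lower. EPX had a log2 fold change of -1.78 (SE 0.0921, adjusted p 3.34e-80) by the authors' deposited table, from an estimated 6358 to 1855 normalised counts. GATA2, a transcription factor of progenitors, mast cells and eosinophils, stood at -1.19 (SE 0.0943), from an estimated 5352 to 2344, in the authors' deposited table. CLC, the Charcot-Leyden crystal protein, was at -1.86, PRG3, a homologue of major basic protein, at -1.07, and histidine decarboxylase HDC at -0.93 in the authors' deposited table. The tryptase genes TPSB2 and TPSAB1 stood at -1.51 and -1.11, but they are near-identical neighbours that short reads can confuse. HDC and TPSAB1 had low means, 11.3 and 9.90 normalised counts. Major basic protein itself, PRG2, did not pass at -0.26 (adjusted p 0.153, 43.0% of its exon bases shared), and RNASE2, the eosinophil-derived neurotoxin also made by monocytes, rose by 0.26 (adjusted p 0.00904) by the authors' deposited table. In such bulk RNA, fewer cells of a kind and less RNA per cell cannot be told apart.

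Transcripts for protein folding fell without exception among those that passed. The chaperones of the endoplasmic reticulum are controlled by the unfolded protein response, in which XBP1 and ATF6 bind promoter elements, and the cytosolic ones by the heat shock factor HSF1. All 33 listed genes were tested, of which 0 were higher and 16 lower, with a median of -0.22. XBP1 stood at -0.64 (SE 0.0926, adjusted p 1.56e-10) by the authors' deposited table, from an estimated 15002 to 9604 normalised counts. CALR, the lectin chaperone calreticulin, was at -0.43 from an estimated 38377 to 28531, and HSPA5, the lumenal Hsp70 BiP, at -0.37 from 22799 to 17584, by the authors' deposited table. SDF2L1 was at -0.45, MANF at -0.41, DNAJB9 at -0.39, PDIA4 and HYOU1 at -0.31, HSPA13 at -0.30 and PDIA6 at -0.22 in the authors' deposited table. Cytosolic members that fell were BAG3 (-0.52), HSPA1B (-0.49), HSPB1 (-0.44), DNAJB1 (-0.32), HSPH1 (-0.29) and HSF1 itself (-0.20), from the authors' deposited table. Members with high counts that did not pass were HSP90AB1 (-0.10, adjusted p 0.559), HSP90AA1 (-0.15, adjusted p 0.514), HSPA8 (-0.16, adjusted p 0.0592) and CANX (0.00, adjusted p 0.985) by the authors' deposited table. HSPA1B and HSPA1A (-0.15, adjusted p 0.681) are near-identical copies, so their values are uncertain. No listed gene was higher at an unadjusted p under 0.05 either (DESeq2 Wald test), and 21 were lower. With a trend in GC content and length removed, 14 were lower, and HSF1, HSPB1, MANF and SDF2L1 were no longer called.

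The promoters of HSPA5, CALR and XBP1 are shown because these genes fell together and share the letters of the endoplasmic reticulum stress element, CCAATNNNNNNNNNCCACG, marked in capitals on either strand. They are RefSeq windows on build GRCh38.p14 of 250 bases before to 50 after the start. HSPA5 lies at chr9:125241294-125241593 on the minus strand, CALR at chr19:12938359-12938658 on the plus strand and XBP1, of which 1 of 2 windows is shown, at chr22:28800520-28800819 on the minus strand.
HSPA5: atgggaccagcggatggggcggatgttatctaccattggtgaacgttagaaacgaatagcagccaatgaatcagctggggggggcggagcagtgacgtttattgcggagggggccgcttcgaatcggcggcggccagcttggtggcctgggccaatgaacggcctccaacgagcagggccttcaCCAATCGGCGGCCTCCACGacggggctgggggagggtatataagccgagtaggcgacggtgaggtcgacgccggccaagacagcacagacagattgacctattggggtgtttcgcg
CALR: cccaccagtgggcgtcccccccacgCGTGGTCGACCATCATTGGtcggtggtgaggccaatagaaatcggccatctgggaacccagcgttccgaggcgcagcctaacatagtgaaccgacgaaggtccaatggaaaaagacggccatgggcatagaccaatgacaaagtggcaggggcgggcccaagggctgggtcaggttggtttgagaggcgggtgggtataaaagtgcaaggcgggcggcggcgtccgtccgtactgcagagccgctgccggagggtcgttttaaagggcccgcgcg
XBP1: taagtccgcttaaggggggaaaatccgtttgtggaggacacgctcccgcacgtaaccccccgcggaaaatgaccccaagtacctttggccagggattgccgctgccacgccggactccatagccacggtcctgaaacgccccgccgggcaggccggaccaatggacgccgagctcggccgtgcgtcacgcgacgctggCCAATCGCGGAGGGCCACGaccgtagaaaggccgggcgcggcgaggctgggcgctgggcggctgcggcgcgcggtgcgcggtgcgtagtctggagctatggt
In HSPA5 the letters span bases -66 to -48, in XBP1 -52 to -34, and in CALR, on the opposite strand, -225 to -207. They occurred in 7 of 31 listed chaperone genes with a window (22.6%) and in 16 of 11183 tested genes (0.143%). Among 15 chaperone genes that fell and had a window, 4 held them (HSPA5, CALR, XBP1 and PDIA6). CANX, CRELD2 and HSP90B1, which did not pass, held them as well, at 0.00, -0.35 and -0.12 in the authors' deposited table. Members that fell and members that did not pass thus both included holders of the letters. This element was also added to the search after values were seen.

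Lysosomal genes rose more often than they fell. Of 58 tested members 20 were higher and 2 lower, with a median of 0.12. ACP5, the tartrate-resistant phosphatase of osteoclasts and macrophages, rose by 2.22 from a low level, an estimated 13.3 to 61.9 normalised counts, in the authors' deposited table. The protease CTSL rose by 0.94, the peptidase TPP1 by 0.66, PSAP, precursor of the saposins, by 0.65 and the acid lipase LIPA by 0.61 in the authors' deposited table. PLD3 (-0.55) and CTSH (-0.39) were the lower members in the authors' deposited table. The proton pump that acidifies the lysosome had 3 of 20 tested subunits higher and 2 lower, and autophagy genes had 4 of 36 higher and 2 lower.

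**Figure D5:**
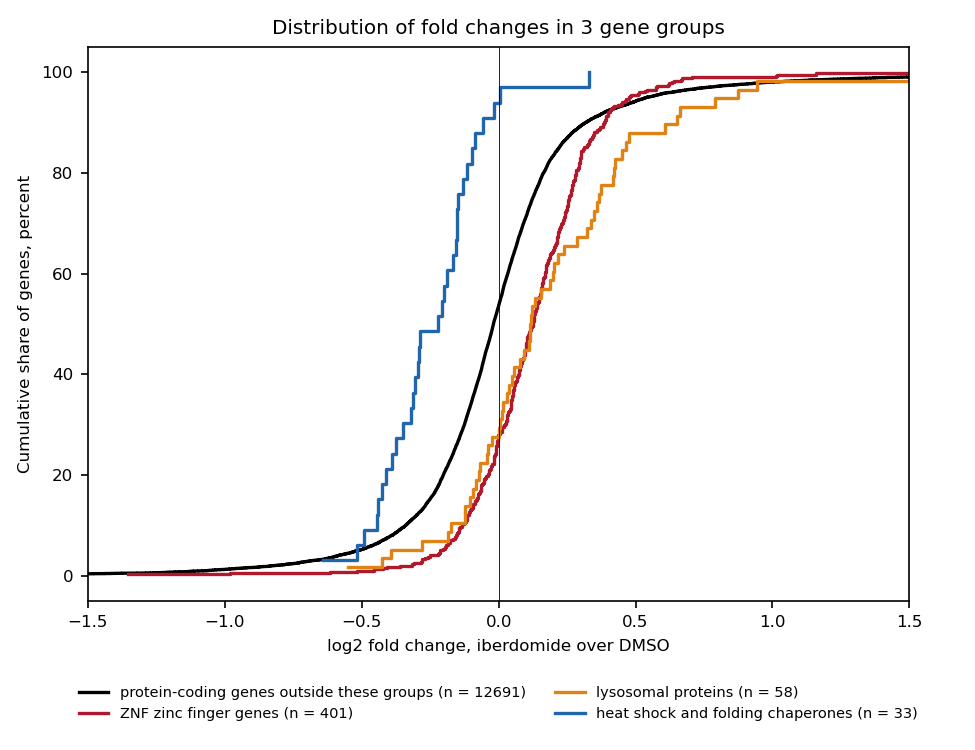
Cumulative share of genes (vertical axis, percent) by log2 fold change of iberdomide over DMSO (horizontal axis, shown from -1.5 to 1.5) for chaperones (blue, 33), ZNF genes (red, 401), lysosomal proteins (orange, 58) and the other protein-coding genes (black). The blue curve lies left of the black one, with a median of -0.22, and the red and orange curves lie right of it over most of the range, with medians of 0.13 and 0.12.

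Receptors of the innate immune system changed in large shares, with most changes upward. Lectin and immunoglobulin-type receptors of the Siglec, LILR, TREM and CLEC groups had 19 of 46 tested members higher and 5 lower. Beyond those already named, TREM1, an amplifier of inflammation, rose by 1.84, CLEC10A, a macrophage galactose lectin, by 1.64 and SIGLEC9 by 0.91, while SIGLEC6, a receptor of trophoblasts and mast cells, stood at -1.48 in the authors' deposited table. The inhibitory receptors CD300A (-0.58) and CD300LF (-0.38) were lower in the authors' deposited table. Scavenger and Fc receptors had 10 of 29 higher and 3 lower, among them CD36, FCAR and MARCO at 1.41, 1.58 and 1.23 in the authors' deposited table. Toll-like receptor and inflammasome genes had 13 of 36 higher and 2 lower. TLR4, the lipopolysaccharide receptor, rose by 1.82 (SE 0.117) from an estimated 1018 to 3606 normalised counts, and its co-receptor CD14 by 1.79 from 16.5 to 57.2, by the authors' deposited table. TLR7 rose by 1.18, TLR2 by 0.81, and MEFV (pyrin) by 1.23, while CD180 and its partner LY86 stood at -0.98 and -0.69 in the authors' deposited table. Among 13 tested genes of the phagocyte oxidase list, CYBB, its catalytic subunit, rose by 2.28 in the authors' deposited table, while the proton channel HVCN1 stood at -0.26. All 5 called MS4A genes of 7 tested rose, by 0.64 (MS4A14) to 0.95 (MS4A4A) in the authors' deposited table.

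Complement and coagulation genes followed, with 11 of 25 tested members higher and 2 lower and a median of 0.35. C5 rose by 1.68, properdin CFP by 1.09, the protein C receptor PROCR by 2.23, thrombomodulin THBD by 1.34 and VSIG4, the complement receptor of tissue macrophages, by 2.58 in the authors' deposited table. The complement receptor CR1 stood at -0.68 in the authors' deposited table. Extracellular matrix and remodelling genes had 18 of 52 higher and 5 lower. COL1A1 rose by 1.41 from an estimated 46.8 to 125 normalised counts, TGM2, a crosslinking transglutaminase, by 1.18, NID1 by 1.12 and MMP2 by 0.72 in the authors' deposited table. Of the fibroblast markers COL1A1 alone had a mean over 10. The urokinase receptor PLAUR, of the plasminogen system, was lower at -0.50 in the authors' deposited table. Serpins had 6 of 15 tested members higher and 3 lower.

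Integrins, chemokines and leukocyte G protein-coupled receptors each had more members lower than higher, and TNF genes more higher than lower. Integrins and their partners had 4 of 36 higher and 8 lower. CD44, the hyaluronan receptor, stood at -1.06 (SE 0.105) from an estimated 3981 to 1909 normalised counts, ICAM1 at -0.94, ITGAX at -0.75 and the integrin chain ITGA4 at -0.40 in the authors' deposited table. Chemokines and their receptors had 3 of 26 higher and 7 lower. CX3CR1, the fractalkine receptor of patrolling monocytes, rose by 1.86 and CCR2, the receptor of classical monocytes, by 1.28, while CXCR4, which holds cells in the marrow, stood at -0.82 (SE 0.0768) and CCR7 at -1.48 in the authors' deposited table. The chemokines CCL5 (-1.13), CCL2 (-1.09) and CCL23 (-0.92) were lower in the authors' deposited table. CCR7 and CCL2 had low means, 8.32 and 18.1 normalised counts. Leukocyte G protein-coupled receptors had 6 of 41 higher and 12 lower, with GPR65, an acid sensor, at -1.75 and the prostacyclin receptor PTGIR at 1.02 in the authors' deposited table. Among TNF ligands and receptors 8 of 29 were higher and 3 lower, with CD40 at 1.76 and TNFRSF4 (OX40) at -0.84 in the authors' deposited table. TNFRSF4 had a low mean of 7.01 normalised counts. Wnt, Notch and TGF-beta genes had 5 of 38 higher and 9 lower, including LGR4 at 1.30, FZD1 at -1.05 and TGFB1 at -0.40 in the authors' deposited table.

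Transcription factors moved in both directions. Of 44 tested myeloid factors 6 were higher and 7 lower. PRDM1 (Blimp-1) rose by 1.62, the monocyte factor KLF4 by 1.05 and IRF8, which directs monocyte and dendritic cell fate, by 0.53 (SE 0.0486) in the authors' deposited table. ID3 (-1.06), KLF2 (-0.78), BATF3 (-0.70) and RUNX3 (-0.60) were lower in the authors' deposited table. SPI1, the master regulator PU.1, did not pass at 0.03 (adjusted p 0.897), while CEBPA at 0.26 (adjusted p 0.0433) and CEBPB at -0.42 (adjusted p 0.0318) lay near the threshold in the authors' deposited table. Nuclear receptors had 3 of 25 higher and 2 lower, and the clock receptors NR1D1 and NR1D2 stood at -0.41 and 0.41 in the authors' deposited table. Chromatin modifiers had 1 of 44 higher and 4 lower, among them EZH2, the Polycomb methyltransferase, at -0.22, and TET1 at -0.52 in the authors' deposited table. Cyclins and their inhibitors had 0 of 20 higher (1 at an unadjusted p under 0.05, DESeq2 Wald test) and 4 lower, with CCND2 at -0.33 and CDKN1C at -0.63, and CDKN1A (p21) did not pass at 0.14 (adjusted p 0.499) by the authors' deposited table. ID3 and CDKN1C had low means, 13.4 and 12.2 normalised counts.

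Zinc finger genes with ZNF symbols were called higher more often than lower, although most members did not pass. This is the family to which many KRAB repressors of mobile elements belong, and it is clustered on chromosome 19. Of 401 tested members 55 were higher and 6 lower, with a median log2 fold change of 0.13. With a trend in GC content and length removed, 43 were higher and the median was 0.11. The count of higher members was 35 at an adjusted p under 0.01 and 28 with Benjamini-Yekutieli adjustment. On chromosome 19, 26 of 181 members were higher and 2 lower, and elsewhere 29 of 220 were higher and 4 lower. The other 1173 tested genes of chromosome 19 went the other way, with 61 higher and 153 lower. Single members reached 2.12 (ZNF205) and 1.16 (ZNF692, SE 0.116) in the authors' deposited table. The family's transcripts are poor in G and C, and calls moved with GC content over all genes. Transcripts called lower had a median GC content of 55.0%, against 47.7% for those called higher and 48.2% over all genes. Within the lowest of 5 equal classes of GC content 15.2% of ZNF genes were higher, against 10.2% of other coding genes, and in the class above it 16.1% against 10.0%. In the middle class the shares were 11.9% and 11.1%, in the next 8.11% and 10.2%, on 37 ZNF genes, and in the highest 11.3% and 7.65%. Zinc finger BTB genes had 1 of 40 higher and 4 lower, with ZBTB16 (PLZF) at -0.83 in the authors' deposited table.

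By chromosome, the share of lower genes was 11.4% on chromosome 19 and 10.8% on chromosome 22, whose tested genes have median GC contents of 57.8% and 55.6%. It was 3.24% on chromosome X, at a median of 46.4%. Among gene types, 9.82% of 13182 protein-coding genes were higher and 9.39% lower, against 3.01% and 1.68% of 3222 long non-coding RNA genes, which have far lower means.

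Across the metabolic lists of this paragraph the share of members called ran from 21.9% for antioxidant genes to 60% for eicosanoid synthesis. It was 14.1% over all genes, and protein-coding genes had 9.82% higher and 9.39% lower. Respiratory chain genes, given further on, had 0 calls. In glycolysis and the pentose phosphate pathway 3 of 37 genes were higher and 8 lower. FBP1, which opposes glycolysis, rose by 2.26 (SE 0.0961) from an estimated 190 to 907 normalised counts in the authors' deposited table. The glucose transporters SLC2A6 (-1.12), SLC2A3 (-0.53) and SLC2A1 (-0.40) were lower in the authors' deposited table. Among 34 tested genes of nucleotide metabolism 6 were higher and 3 lower. CDA, cytidine deaminase, rose from an estimated 61.6 to 247 normalised counts, SAMHD1, which hydrolyses dNTPs, by 1.18 (SE 0.0752) from 2210 to 5009, and ADA2 by 1.02 in the authors' deposited table. Eicosanoid synthesis had 9 of 25 tested genes higher and 6 lower. The lipoxygenases ALOX5, ALOX12 and ALOX15 rose by 1.64, 1.21 and 0.67, and the activating protein ALOX5AP by 0.40, in the authors' deposited table. PTGDS (-1.57) and PTGIS (-1.07), synthases of prostaglandin D and prostacyclin, and LTC4S (-0.64) were lower in the authors' deposited table. ALOX15 and PTGIS were near the edge of detection, with means of 4.76 and 8.17 normalised counts. Fatty acid and lipid droplet genes had 6 of 34 higher and 6 lower. The lipases LIPE and MGLL, the lipase inhibitor ANGPTL4 and the droplet coat gene PLIN2 stood at -1.80, -1.33, -1.32 and -0.81 in the authors' deposited table. Of iron and haem genes 5 of 27 were higher and 2 lower, with haptoglobin HP at 2.33 and the phagosomal metal transporter SLC11A1 at 1.05 in the authors' deposited table. Antioxidant genes had 3 of 32 higher and 4 lower, with a median of -0.04 and values from -0.72 to 0.54. The 4 lower ones were NQO1 (-0.63), SLC7A11 (-0.70), HMOX1 (-0.72) and OSGIN1 (-0.64) in the authors' deposited table.

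Several large housekeeping families showed next to no calls. None of 46 tested proteasome subunits, 82 respiratory complex and ATP synthase subunits or 13 mitochondrially encoded genes was called by the DESeq2 Wald test. At an unadjusted p under 0.05 the proteasome had 0 higher and 9 lower, the respiratory set 3 higher and 1 lower, and the mitochondrial genes 0 and 0. With only genes of a mean of at least 50 tested, 3 proteasome subunits were called lower. Cytosolic ribosomal proteins had 1 of 86 called, RPL39L, a paralogue enriched in testis, at -0.63 (adjusted p 0.00284) by the authors' deposited table. Histone genes had 1 of 47 called, which was higher, and poly(A) selection captures most histone transcripts poorly. At an unadjusted p under 0.05 (DESeq2 Wald test) 1 histone gene was higher and 8 were lower, with a family median of -0.15. Mitochondrial ribosomal proteins had 1 of 77 higher and 5 lower, and translation initiation factors 4 of 55 higher and 2 lower. Aminoacyl-tRNA synthetases had 1 of 35 higher and 6 lower. The median of the proteasome subunits was -0.14 and that of the mitochondrial ribosomal proteins -0.15, so few or no calls do not show that these families stood still.

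Short motifs bound by known factors were counted in the promoters of the called genes. On both strands of the RefSeq windows, TGANTCA, bound by AP-1, occurred in 12.1% of 1064 higher genes, 8.07% of 979 lower genes and 7.10% of 11183 tested genes. TGGGAA, the core that Ikaros binds, occurred in 34.0%, 25.3% and 27.7% of these, and the Ets form AGGAAGT in 14.6%, 10.6% and 11.04%. GGGCGG, bound by Sp factors, occurred in 70.3%, 79.9% and 73.9%, in the same order. TGACGT, the CREB core, occurred in 11.6%, 10.3% and 13.6%, and TATAAA in 10.7%, 9.91% and 8.90%. These shares are descriptions, and GC content, which differs between the called sets, sets part of how often such letters occur by itself.

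Reads of some genes named here can be shared with another gene, since the library kit is not stated to keep strand. At least 10% of exon bases overlap an exon of another gene in IL2RG, PRG2, LYZ, SERPINB10, SPIB, TK2, SIGLEC6, APOC1, CEBPA, CEBPB, RARA, DUSP6, PHLDA1, IER3, PDIA6, HSPA1B, FBP1, SAMHD1, NQO1, OSGIN1, CCND2, ICAM1, PROCR, PTGDS, ALOX12, HVCN1, TPP1, ZNF205, HOXA3 and LINC01140. Their values are therefore uncertain to that extent.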

How the data were processed

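Poly(A)-selected RNA was read as 37 bp read pairs, per the labels' protocols, from 9 libraries in 3 groups of 3. DESeq2, HTSeq 0.6.1pl, STAR 2.7.5a, SAMtools 1.95, bcl2fastq 2.20.0.422 and Picard 2.9.4 appear, without role or order, in the submitters' processing notes beside the build GRCh38 (hg38). Not given in the sources used here: annotation release, counting options and what a duplicate-removal label on the results refers to.

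Per the file headers, each deposited table holds a mean normalised count (a signal over all 9 libraries), a log2 fold change of drug over DMSO with its standard error, the Wald statistic (a score), and raw and adjusted p-values. Shrinkage towards 0 is visible in the deposited log2 fold changes, so changes of low genes are understated: genes with a mean under 0.2 have absolute values of at most 0.0129. The authors' adjusted p-value is a Benjamini-Hochberg value over genes with a mean of at least 2.87. A count test was provided for in the design. Since no counts were found, the authors' Wald test was used, with calls at an adjusted p under 0.05. Left-out rows that name no gene hold 3.39e-05% of the counts. Library depth was estimated from the means of genes with 1 read (size factors 0.889 to 1.08) and is approximate.

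Computed here with Python 3.11.15, pandas 2.3.3 and scipy 1.17.1 were the estimated levels, the counts by list, and the drug difference. The level in DMSO was taken as 3 times the mean over the sum of 1 and both folds. The drug difference was tested two-sided with a normal test, independent errors and Benjamini-Hochberg adjustment over 19497 genes. Tested on simulated data of 19497 genes for iberdomide against DMSO, the adjustment called 44 of 50 genes planted at 1.5-fold, 50 of 50 at 2-fold and 10 of 19297 without a change. For the drug difference, with errors taken as independent in the test, it called 34 of 50 changed 1.5-fold, 48 of 50 changed 2-fold and 0 unchanged ones. All changed genes were planted at a mean of at least 100 normalised counts, so these recoveries hold for that range only. They do not show what would be recovered among the 8578 tested genes under a mean of 100, whose median standard error was 0.215. Genes named were the 12 largest rises and falls with a mean of at least 100, leaving out genes described earlier from these data, the 10 largest gains and losses of estimated counts, and list members. The members, lists and families were chosen with earlier results of these data known. Positions, GC content and exon overlaps came from GENCODE 29 (19210 genes matched, 287 not), promoters from RefSeq on GRCh38.p14. The stress element and the direct repeat were added to the motif search after values were seen. A few results are not reported here.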

Additional observations from a re-analysis of the deposited data

How the results depend on the processing

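With Benjamini-Yekutieli in place of Benjamini-Hochberg adjustment, 1746 genes were called, 942 higher and 804 lower, and 12 differed between the drugs. Of 233 called genes named in the text, 33 were then no longer called: ALOX15, BATF3, CDKN1C, CEBPA, CEBPB, CR1, CTSH, ETV4, EZH2, FLNA, HOXA3, HSF1, HSPB1, HVCN1, IL10RA, JAK2, JAK3, LIF, LTC4S, MANF, MS4A14, NR1D1, OSGIN1, PDIA6, PTPN6, RGS2, RNASE2, SDF2L1, SLC2A3, SOCS2, SOCS3, STAT3 and TET1. At an adjusted p under 0.01 25 of the same genes dropped out, with no filter on low means 7 (CDKN1C, CEBPA, CEBPB, HOXA3, OSGIN1, PTPN6 and TET1) and with centred fold changes 2 (CDKN1C and PTPN6). With the GC and length trend removed 17 dropped out: CDKN1C, CEBPB, CTSH, EPOR, ETV4, HOXA3, HSF1, HSPB1, HVCN1, LTC4S, MANF, NR1D1, OSGIN1, PTPN6, SDF2L1, STAT3 and TGFB1. No named gene changed direction. With an error correlation of 0.5 from the shared DMSO libraries, 118 genes differed between the drugs, of which 17 lay farther from DMSO under iberdomide. No other setting moved the counts of called, higher, lower or 2-fold genes by over 1.5 times: no filter on low means (2410 called), a mean of at least 50 (2480), centred fold changes (2744), protein-coding genes only (2752), removal of a GC and length trend (2528) and an adjusted p under 0.01 (1976). Removing the GC and length trend left 1441 higher and 1087 lower genes, so that 57% of calls were higher against 51.9%. Over 118 counts by list and direction, 14 moved by over 1.5 times and by at least 3 genes with Benjamini-Yekutieli adjustment, 9 at 0.01, 8 with a mean of at least 50, 4 with the trend removed and 3 each with no filter and with protein-coding genes only. With level limits of 5 and 50 in place of 10 and 100, still 0 genes went from the lower to the higher or back, by levels from the same shrunken fold changes. No paired analysis was possible because the tables hold no values per library; for the same reason leaving out a replicate, another normalization and any test of outlying libraries were not run. Depth limits calls of small changes in genes under a mean of 100, where about 1.5-fold was needed on the scale of the deposited, shrunken fold changes.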

Other observations

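Transporters, channels and trafficking genes, which stand in no pathway above, are set beside 7.3% higher and 6.77% lower over all genes, and 9.82% and 9.39% over protein-coding genes. Solute carriers had 30 of 243 tested members higher and 38 lower, with a median log2 fold change of -0.02. SLC7A7, which exports cationic amino acids from macrophages, rose by 1.71 and SLC1A3, a glutamate transporter, by 1.64, while the potassium chloride cotransporter SLC12A7 stood at -0.98 and the zinc transporter SLC39A3 at -0.87 in the authors' deposited table. ABC transporters had 7 of 28 higher and 4 lower, and beyond ABCA1 the drug and leukotriene exporters ABCC1 and ABCC4 rose by 0.58 and 0.33 in the authors' deposited table. Potassium channels had 4 of 38 higher and 7 lower, with KCNH2 (hERG) at -2.62 from an estimated 83.8 to 13.6 normalised counts in the authors' deposited table. RAB GTPases, which direct vesicles, had 6 of 54 higher and 5 lower, near the share of protein-coding genes, with RAB31 at 1.40 (SE 0.0667) and RAB37 at -0.79 in the authors' deposited table. Kinesins, likewise near that share, had 3 of 34 higher and 4 lower, with KIFC3 at 1.93 and KIF1B at 1.17 in the authors' deposited table. Protein tyrosine phosphatases had 5 of 31 higher and 3 lower, led by PTPN14 at 1.80, while PTPN6 (SHP-1) was at -0.17 in the authors' deposited table. TMEM genes had 22 of 176 higher and 14 lower.

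Genes of axon guidance and neuronal structure had 6 of 41 tested members higher and 12 lower. NRP1 and its plexin partner PLXNA2 rose by 2.85 and 1.90, and PLXNA1 by 0.66, while PLXNC1 (-1.04), PLXND1 (-0.56) and the ligand SEMA3F (-1.05) were lower in the authors' deposited table. Membrane peptidases had 5 of 17 higher and 4 lower, with ANPEP (CD13) at 1.79 and ECE1, the endothelin-converting enzyme, at -1.13 in the authors' deposited table. Among 256 tested long intergenic RNAs 18 were higher and 6 lower, with LINC01140 at 2.66 (SE 0.0874) from an estimated 231 to 1459 normalised counts in the authors' deposited table. HOX genes had 0 of 11 higher and 2 lower, HOXA5 at -0.51 and HOXA3 at -0.28 in the authors' deposited table. Their median was -0.22, and at an unadjusted p under 0.05 (DESeq2 Wald test) 0 were higher and 5 lower. The pre-B list had 2 of 11 higher and 1 lower, with IL7R at 2.10 and IGLL1, a part of the surrogate light chain of the pre-B receptor, at -3.55, the lowest value of all genes tested, in the authors' deposited table.

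Lists of other cell types gave few tested members. T, NK and B cell genes had 2 of 9 higher (GNLY at 2.28 and CD4 at 0.36) and 1 lower (CD3D at -0.85), and erythroid and platelet genes had 2 of 10 higher and 2 lower, in the authors' deposited table. S100 genes had 3 of 12 higher and 1 lower, S100P at -1.21, tetraspanins 2 of 19 higher and 1 lower, and regulators of G protein signalling 1 of 14 higher and 2 lower (RGS16 at -1.17 and RGS2 at -0.55), by the authors' deposited table.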
